A study of Drosophila melanogaster with 6 samples.

Results

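Of the 6 samples in the series, the 4 libraries made from adult fly brains were compared by the number in their names, as libraries numbered 2 against libraries numbered 1. The libraries numbered 2 were 1 labelled rRNA-depleted and 1 labelled polyA-enriched, and the libraries numbered 1 were again 1 of each. All 4 came from 5-day-old Canton-S flies, a wild-type strain, with about 15 brains pooled per sample, and no allele or treatment distinguished the numbers in the labels. The number is a name only: beyond naming replicates, the sources used here give no difference between number 1 and number 2. According to the study's methods the total RNA was split between both library types, so same-numbered libraries may share an RNA sample, and the libraries of each kind are described there as biological replicates. With label and number fitted, the 4 libraries leave 1 residual degree of freedom, which holds how far the number difference varied between the labels. The p-values rest on that spread, pooled in part over genes. If same-numbered libraries share an RNA sample, no p-value here measures the spread between RNA samples. Should labels have been exchanged, same-labelled libraries may share RNA instead, and the label would then stand for the RNA sample. Which libraries share RNA was not tested. The genes were chosen by their counts, and 9737 of 16725 genes had 10 or more counts in at least 2 of the 4 libraries. Of these, 9167 were protein-coding, out of 13798 protein-coding genes listed.

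PolyA enrichment retains RNAs that end in a polyA tail, which most finished mRNAs have. rRNA depletion removes rRNA with DNA probes and RNase H and keeps other RNAs whether or not they have a tail. Small nucleolar RNAs (snoRNAs) and the 7SK RNA lack long polyA tails and work in the nucleus, where snoRNAs guide chemical modification of rRNA and 7SK holds the kinase that releases RNA polymerase II from pausing. Introns are also nuclear, since they are spliced out before an mRNA is exported. In flies many protein-coding genes lie whole inside an intron of another gene, so a read there can come from the inner gene or from the unspliced RNA of the outer gene.

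The total count was 12142737 and 11838449 in the libraries numbered 2, and 14295047 and 13821678 in the libraries numbered 1, with the library labelled rRNA-depleted given first here and in each pair of values below. The RNA 7SK (listed as snRNA:7SK) had 12378 and 14595 counts in the libraries numbered 2, against 105 and 121 in the libraries numbered 1. All snoRNA genes together made up 554 and 455 CPM (counts scaled to a library total of 1000000) in the libraries numbered 2, against 50.8 and 48.8 in the libraries numbered 1. Both RNAs therefore separated the libraries by number and not by label, and 1 of the 2 libraries rich in them was labelled polyA-enriched. Other genes went by the label: the muscle markers summed to 26.8 and 285 CPM in the libraries numbered 2, against 29.8 and 340 in the libraries numbered 1. Whether the labels of 2 libraries were exchanged was not tested, and these files alone cannot tell it apart from another difference between the numbers. The neuronal markers elav and nSyb and the glial marker repo, which check the tissue, had 1792 or more counts in every library.

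With the label as a block, 775 protein-coding genes were called higher in the libraries numbered 2 and 489 were called lower. The test was edgeR's quasi-likelihood F test. A call required a log2 fold change of number 2 over number 1 beyond 1 and, after Benjamini-Hochberg adjustment over all genes, a p-value under 0.05. This background was 8.45% of the tested protein-coding genes called higher and 5.33% called lower. Over all 9737 genes it was 10.5% higher and 5.42% lower. Without the fold change limit 2782 protein-coding genes were higher and 2321 lower at the same adjusted p. The median log2 fold change of all genes tested was 0.05. When the scaling factors came from protein-coding genes without ribosomal proteins, that median shifted by -0.13 and the split was 605 higher and 700 lower, which put 46.4% of the calls on the higher side in place of 61.3%. Without the block the counts were 449 higher and 229 lower.

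Nearly all called genes had the same sign in both labels. Of the 1264 called protein-coding genes, 1249 had the same direction in the libraries labelled rRNA-depleted and in those labelled polyA-enriched, taken as log2 CPM of number 2 minus number 1 within each label. With 1 library left out the block leaves no residual degrees of freedom, so those fits also dropped the block, and 1 number was then held by a single library assumed to vary like the rest. They called 0 to 47 genes higher and 0 to 4 lower, and the part of the missing library in this was not separated from that of the block. The calls came without the polyA-enriched library numbered 2. An unadjusted p under 0.05 was reached by 940 to 1071 genes higher and 652 to 1012 lower in those 4 fits.

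**Figure D1:**
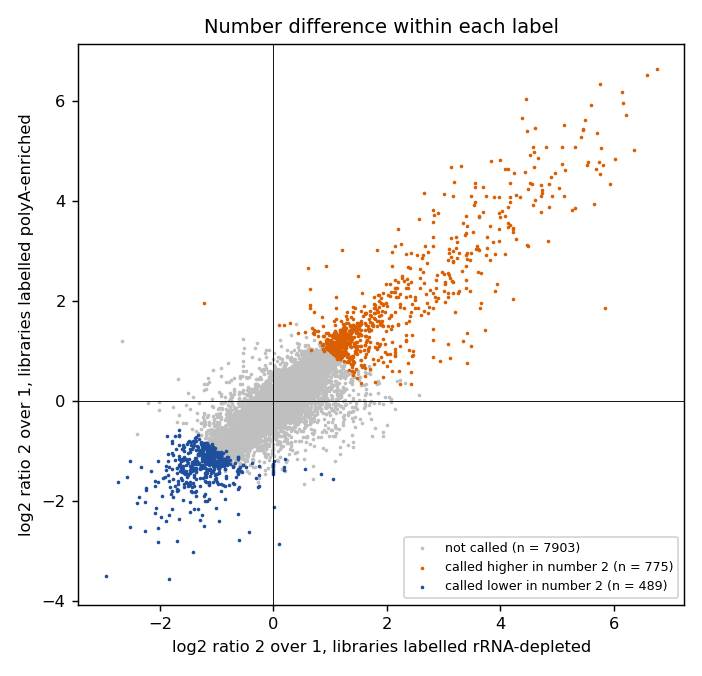
Each point is 1 of the 9167 tested protein-coding genes, with the log2 ratio of number 2 over number 1 in the libraries labelled rRNA-depleted on the horizontal axis and in the libraries labelled polyA-enriched on the vertical axis. Genes called higher in number 2 (775) lie mostly in the upper right and genes called lower (489) mostly in the lower left.

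The 10 protein-coding genes with the largest rise among those with a mean of at least 50 counts had 1 feature in common that their choice had not used. Each lay whole inside an intron of another protein-coding gene on the same strand. These genes were t-cup, CG4375, CG5810, CG11423, CG4631, S-Lap4, CG12426, CG31815, CG44521 and CG6628. Their counts were 108 to 545 in the libraries numbered 2, against 0 to 5 in the libraries numbered 1. Each of the 10 genes thus passed the filter of 10 counts through the libraries numbered 2 alone. Among those with a known role, t-cup belongs to a group of genes transcribed late in spermatids, and S-Lap4 codes for an aminopeptidase of sperm. Without the limit on counts, 8 of the 10 largest rises were of genes so placed, and CG43329 and CG43330 were the exceptions.

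The gene t-cup (chromosome 2L, 12496616 to 12497333, minus strand, in the Ensembl annotation BDGP6.54, which has dm6 coordinates) had 273 and 180 counts in the libraries numbered 2, against 1 and 0 in the libraries numbered 1. The ratio of the summed, normalized counts was 561, with an exact 95% counting interval of 100.1 to 22200 that covers counting error only. Its host bun (2L, 12455540 to 12546611, minus strand), a transcription factor of the TSC22 family, had 15006 and 14380 counts in the libraries numbered 2, against 16411 and 14860 in the libraries numbered 1. The host's log2 fold change was 0.22 ± 0.10 (SE, adjusted p = 0.052). The inner gene was thus near absent from the libraries numbered 1 while the outer gene was at a like level in all 4.

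CG4375 (2L, 1026105 to 1026897, minus strand) repeated this inside IA-2 (2L, 1008378 to 1048053), a membrane protein of dense-core vesicles and the gene with the most counts of the hosts named here. CG4375 had 121 and 109 counts in the libraries numbered 2, against 1 and 0 in the libraries numbered 1. The ratio of the summed counts was 285, with a counting interval of 50.6 to 11300. IA-2 itself had 113870 and 95637 counts in the libraries numbered 2, against 157352 and 117495 in the libraries numbered 1, a log2 fold change of -0.07 ± 0.10 (SE, adjusted p = 0.56).

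CG11423, which is on the list of respiratory chain subunits, lies within lack, a ubiquitin ligase of the Smurf type. It had 234 and 191 counts in the libraries numbered 2, against 2 and 1 in the libraries numbered 1, and the ratio was 175 with a counting interval of 59.6 to 854. The remaining hosts were SNF4Agamma, the gamma subunit of AMP-activated kinase, A2bp1, a splicing factor of the Rbfox family, sif, an exchange factor for the GTPase Rac, the cell surface protein gene dpr10, and CG42389 and CG34353. For the 7 genes inside them, which had 2 to 8 counts over both libraries numbered 1, the ratios of the summed counts ran between 88.2 (CG6628) and 214 (CG5810). The log2 fold changes of these hosts ran between -0.21 (A2bp1) and 1.07 (CG42389). Only CG42389 among the named hosts was itself called.

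Position was then counted for every tested gene, a class chosen after these values were seen. Of 287 tested protein-coding genes in a same-strand intron of another, 222 (77.4%) were called higher in the libraries numbered 2 and 1 was called lower, against the background of 8.45% and 5.33%. Their median log2 fold change was 2.97, with 2.84 within the libraries labelled rRNA-depleted and 2.53 within those labelled polyA-enriched. Of another 287 tested genes in an intron of a gene on the opposite strand only, 21 (7.32%) were higher and 13 (4.53%) lower, with a median of -0.05. The 8593 genes in no such intron had 532 (6.19%) higher and 475 (5.53%) lower, and a median of 0.02. Genes on the opposite strand of their host were therefore called at a share near the background, and same-strand genes were not.

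The filter bears on this class. Of the 287 same-strand genes, 124 passed it through the libraries numbered 2 alone, out of 202 such protein-coding genes in all. In all, 287 of the 397 listed passed it. Among the 130 with 10 or more counts in all 4 libraries, 69 (53.1%) were called higher, against 5.91% of the 8224 protein-coding genes with such counts. Their median log2 fold change was 1.07. Single-exon genes, which have no splice junctions of their own, made up 168 of the 287, and 81 of these passed through the libraries numbered 2 alone, as did 43 of the 119 with introns. With 10 or more counts in all 4 libraries, 41 of 72 single-exon genes and 28 of 58 with introns were called higher, and 19 of 546 single-exon genes outside same-strand introns.

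The 280 inner genes with a tested host were then grouped by the counts of the outer gene, as a description. With a host of 2000 or more counts on average, 129 of 152 inner genes were called higher and the median log2 fold change was 3.83. With a host of 500 to 2000 counts it was 69 of 90 with a median of 2.93, and with a host under 500 counts 20 of 38 with a median of 1.03. Among inner genes with 10 or more counts in all 4 libraries these were 45 of 68 (median 1.5), 17 of 35 (1.0) and 5 of 22 (0.26). The 222 inner genes called higher had 176 different hosts, of which 173 were tested. The tested hosts had a median log2 fold change of 0.46, a median mean count of 2454, and 25 of them (14.5%, background 8.45%) were called higher themselves. The hosts were not matched for length. Outside same-strand introns 9.12% of genes with 4333 to 6129 exonic bases were higher, and 26.9% of those with 6138 to 71820. Reads from the intron of a host and mRNA of the inner gene cannot be told apart in counts per gene. The kit marked strand, but the strand setting of the counting is not given in the sources used here.

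**Figure D2:**
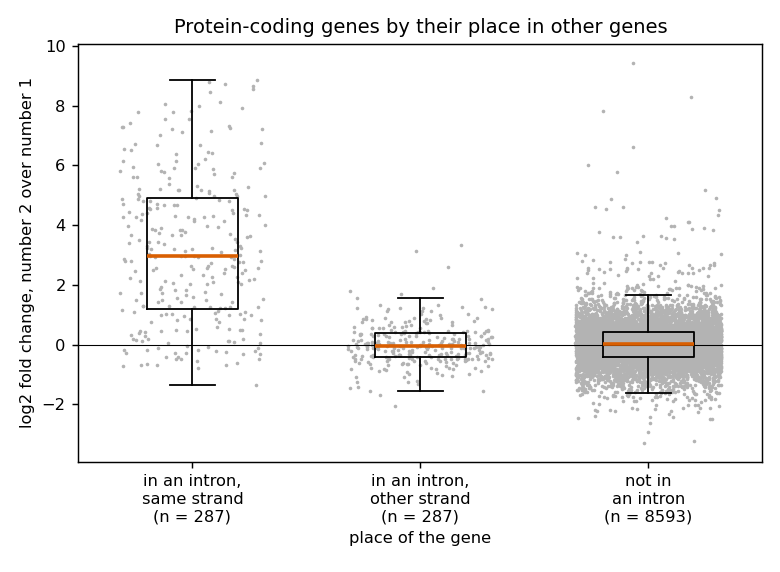
Each point is a tested protein-coding gene, placed by whether it lies in an intron of another protein-coding gene on the same strand (n = 287), on the other strand only (n = 287) or in none (n = 8593), and the vertical axis gives the log2 fold change of number 2 over number 1. Boxes are quartiles with the median in orange (2.97, -0.05 and 0.02), and whiskers reach to 1.5 box lengths or the farthest gene within them.

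Some inner genes belong to families known mainly from other tissues. Ir47a (2R, 10377128 to 10380109), an ionotropic receptor gene chosen after its values were seen, had 749 and 600 counts in the libraries numbered 2, against 32 and 19 in the libraries numbered 1, and its log2 fold change was 5.04 ± 0.19 (SE, adjusted p = 2.9e-33). NimC4, known as a phagocytosis receptor of glia and blood cells, lies within the acetylcholine receptor gene nAChRalpha5. It had 262 and 187 counts in the libraries numbered 2, against 5 and 6 in the libraries numbered 1, and its log2 fold change was 5.62 ± 0.31. Obp85a, an odorant-binding protein gene within CG45263, had 88 and 65 counts in the libraries numbered 2, against 0 and 1 in the libraries numbered 1. NimC4 and Obp85a also passed the filter through the libraries numbered 2 alone. The single inner gene called lower was Mtk, which codes for the antimicrobial peptide metchnikowin. It had 19 and 65 counts in the libraries numbered 2, against 80 and 177 in the libraries numbered 1, a log2 fold change of -1.37 ± 0.25.

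A second pattern covered the remaining mRNAs and followed their length. Outside same-strand introns, 553 of 8880 protein-coding genes were called higher in the libraries numbered 2, with a median exonic length (the union of all annotated exons) of 5249 bases. The 488 called lower had a median of 862 bases, and all 8880 had 2233. In the shortest of 10 length classes, 198 to 893 bases, the median log2 fold change was -0.67, with 33 genes higher and 251 (28.2%) lower. In the longest class, 6138 to 71820 bases, it was 0.67, with 239 (26.9%) higher and 1 lower. The medians of the classes between them, in order of length, were -0.46, -0.28, -0.16, -0.06, 0.05, 0.12, 0.24 and 0.45.

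Both labels gave this gradient. Within the libraries labelled rRNA-depleted the medians of the shortest and longest classes were -0.57 and 0.66, and within those labelled polyA-enriched -0.73 and 0.68. Across the 8880 genes, which are not independent replicates and share the same 4 libraries, Spearman's rho between log2 fold change and exonic length was 0.59. It was 0.30 with intron length, 0.30 with the number of exons and 0.08 with the mean count, and among the 4139 genes with a mean of at least 500 counts it was 0.68 with exonic length. Once the median of the gene's length decile among all 9167 tested protein-coding genes was subtracted, rho with the mean count was -0.24. Longer genes also had more counts, with a median mean count of 162 in the shortest class and 3330 in the longest. The lengths are of annotated exons, and the transcript made in brain may be shorter.

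**Figure D3:**
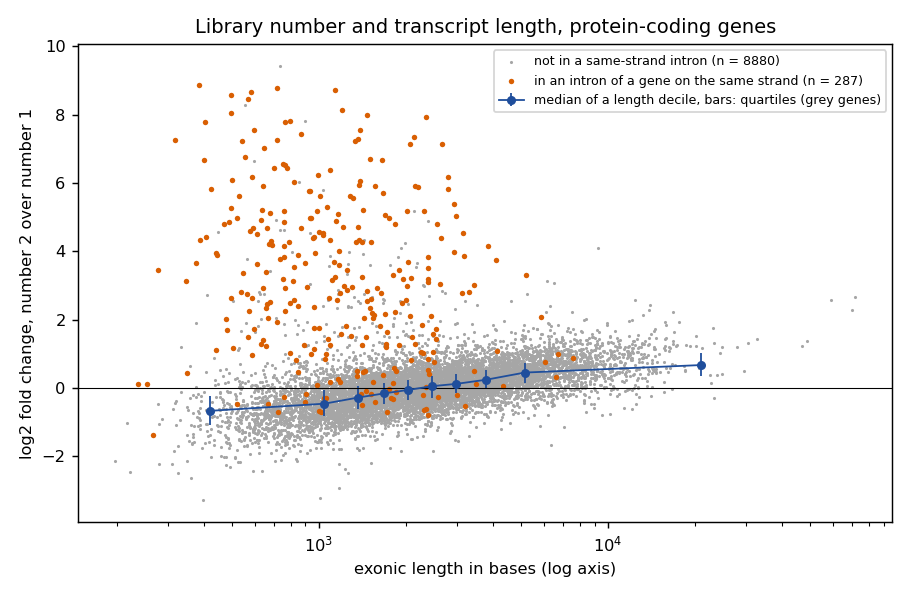
Tested protein-coding genes by exonic length (horizontal, log axis, bases) and log2 fold change of number 2 over number 1 (vertical), with genes in a same-strand intron in orange (n = 287) and the rest in grey (n = 8880). Blue points are the medians of the grey genes in 10 length classes, with bars for the quartiles, and go up from -0.67 in the shortest to 0.67 in the longest, while the orange genes stand above at short lengths.

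The 5 mRNAs called higher with the most counts were pros, Msp300, Ank2, futsch and kis, all of them long. Counts were not divided by length in this and the later rankings by counts, so long mRNAs gain in them. Prospero (pros), a homeodomain transcription factor of the nervous system with 24892 exonic bases, had 74623 and 60147 counts in the libraries numbered 2, against 41173 and 31505 in the libraries numbered 1. Its log2 fold change was 1.20 ± 0.10 (SE, adjusted p = 4.6e-16). Msp300, a giant nesprin that ties nuclei to the cytoskeleton (69810 bases), had 59670 and 57135 counts in the libraries numbered 2, against 16573 and 13086 in the libraries numbered 1. That was a log2 fold change of 2.29 ± 0.11. Futsch, the microtubule-binding protein of axons and synapses, had a log2 fold change of 1.33 ± 0.10. Ank2, a neuronal ankyrin, and kis, a chromatin remodeler of the CHD family, both had 1.23 ± 0.10.

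The list of large cytoskeletal and scaffold proteins, large by choice, had 9 of 15 tested members (60.0%) higher and none lower. The background was 8.45%, and in the longest length class outside same-strand introns 26.9% of all genes were higher. The list's median was 1.25 beside 0.05 for all genes tested. Dhc64C, the heavy chain of cytoplasmic dynein (14597 bases, named after its values were seen), had 16224 and 13112 counts in the libraries numbered 2, against 6207 and 4859 in the libraries numbered 1 (log2 fold change 1.72 ± 0.10). Dhc93AB, an axonemal dynein chain of cilia, had the largest change of the list at 2.44 ± 0.44 but only 72 and 13 counts in the libraries numbered 2, against 10 and 8 in the libraries numbered 1. Length was subtracted here and below as the median of the member's length decile among all 9167 tested protein-coding genes. That left the list's median at 0.57. The longest decile ran from 6055 to 71820 bases and the list's median length was 14597, so differences in length within that decile were not removed.

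Among 49 chromatin and transcription regulators 14 (28.6%) were higher, beside 8.45% of all tested protein-coding genes, and none was lower, with a median of 0.57. EcR, the nuclear receptor for the steroid ecdysone, had the largest change. It had 6175 and 5402 counts in the libraries numbered 2, against 2268 and 1772 in the libraries numbered 1, a log2 fold change of 1.83 ± 0.10 (SE, adjusted p = 2.2e-25). The trithorax gene trx, a histone methyltransferase, and nej, the fly CBP acetyltransferase, followed with 1.58 ± 0.10 and 1.45 ± 0.10. These 2 were named after their values were seen. With length subtracted the list's median was 0.20. Its median length was 7557 bases, and in the longest length class outside same-strand introns 26.9% of all genes were higher, a share near that of the list.

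Cell adhesion and axon guidance genes had 13 of 93 (14.0%) higher and 1 lower, beside 8.45% and 5.33% over all tested protein-coding genes, with a median of 0.38 that became -0.04 with length subtracted. The cadherin ds, a partner of ft in planar polarity, had the largest change, 2.58 ± 0.49, on 15 and 47 counts in the libraries numbered 2, against 7 and 5 in the libraries numbered 1. The immunoglobulin gene dpr6, a synaptic recognition molecule named after its values were seen, had 2815 and 3004 counts in the libraries numbered 2, against 837 and 551 in the libraries numbered 1 (log2 fold change 2.40 ± 0.12). The member called lower was CG42596, at -1.57 ± 0.12. Fas1, the member with the most counts, codes for fasciclin 1 and had -0.72 ± 0.10, which did not pass the fold change limit.

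The lists of neuronal signalling genes held few calls. Of 23 voltage-gated and leak ion channels 1 (4.35%, background 8.45%) was higher, Shawl, a potassium channel (1.11 ± 0.10). The channel median was 0.14, and -0.47 with length subtracted, and 21 of the 23 lay below the median of their length class. Of 26 synaptic release and active zone genes none passed in either direction, and the median was 0.14, or -0.31 with length subtracted. Under the other scalings these medians came down to 0.01 and 0.00, and with 1 library left out and no block they ran from -0.07 to 0.21 for channels and -0.12 to 0.26 for synaptic genes. The member with the most counts was unc-13, a vesicle priming factor with 22598 exonic bases. It had 50482 and 40457 counts in the libraries numbered 2, against 45335 and 39980 in the libraries numbered 1, a log2 fold change of 0.39 ± 0.10.

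Of 37 neurotransmitter receptors 3 (8.11%) were higher, near the background of 8.45%, and none was lower. The D2-type dopamine receptor Dop2R (X, 20004680 to 20062706) had 9205 and 8293 counts in the libraries numbered 2, against 1362 and 1211 in the libraries numbered 1. Its log2 fold change was 3.07 ± 0.10 (SE, adjusted p = 4.3e-36), which is 8.42-fold. The serotonin receptor 5-HT2A had 1.25 ± 0.12 and the D1-type receptor Dop1R1 1.13 ± 0.10. Rdl, the GABA-gated chloride channel and the receptor with the most counts, had -0.06 ± 0.10 (adjusted p = 0.63). The median of the list was 0.33, but -0.19 with length subtracted, and 24 of the 37 lay below the median of their length class.

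Among 13 activity-regulated genes Arc1 and kay (15.4%, background 8.45%) were higher and none was lower. Arc1 codes for a capsid-forming protein that moves RNA between neurons and muscle. It had 1885 and 2851 counts in the libraries numbered 2, against 266 and 426 in the libraries numbered 1, a log2 fold change of 3.09 ± 0.12 (SE, adjusted p = 1.3e-32). At 2371 exonic bases it lay in the middle of the length range, where the median was 0.05. The fly Fos gene kay had 1.02 ± 0.10. Hr38, the member with the most counts and a nuclear receptor of the NR4A family, had 0.57 ± 0.10.

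**Figure D4:**
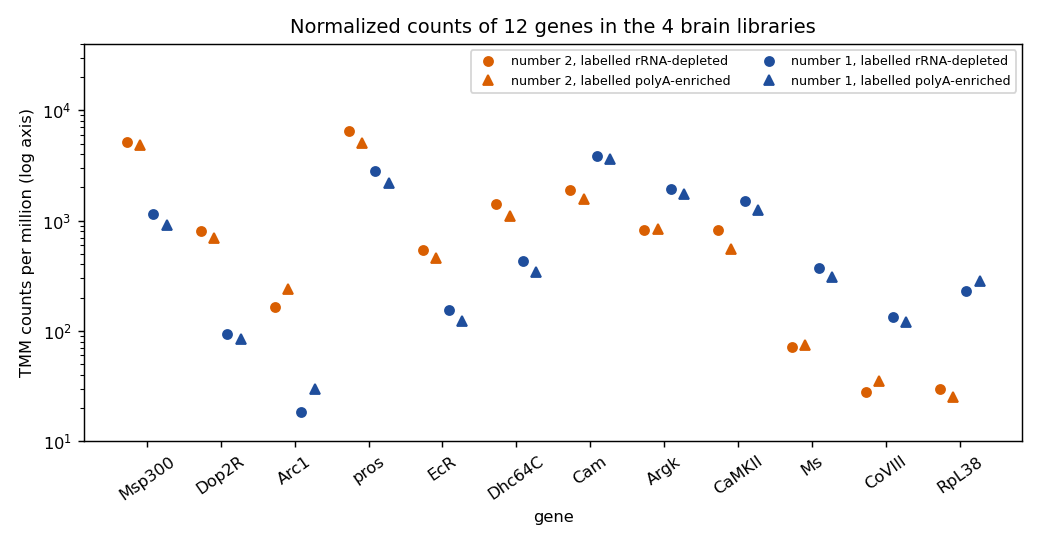
TMM-normalized CPM (vertical, log axis) of 12 genes in each of the 4 libraries, with the libraries numbered 2 in orange at the left and those numbered 1 in blue at the right of each gene, circles for the label rRNA-depleted and triangles for polyA-enriched. The first 6 genes were chosen from those called higher in number 2 and the last 6 from those called lower, so their separation by number follows from that choice.

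Short housekeeping mRNAs were on the other side. Of 85 tested cytosolic ribosomal protein genes 50 (58.8%) were called lower in the libraries numbered 2 and none higher, beside 5.33% lower over all tested protein-coding genes. Their median log2 fold change was -1.07, or -0.64 with length subtracted, and 78 of the 85 lay below their length class. RpL38, of the large subunit, had the largest fall among the genes that met the naming rule, with 29.4 and 24.9 TMM-normalized CPM in the libraries numbered 2, against 228 and 284 in the libraries numbered 1. Its log2 fold change was -3.23 ± 0.12 (SE, adjusted p = 2.4e-33). RpL5, the member with the most counts, had -0.84 ± 0.10.

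Mitochondrial ribosomal proteins had 23 of 74 (31.1%, background 5.33%) lower and none higher, with a median of -0.75, but only -0.18 with length subtracted. Their median length was 786 bases, and in the shortest length class outside same-strand introns 28.2% of all genes were lower, a share near theirs. The large-subunit gene mRpL34 had 26 and 18 counts in the libraries numbered 2, against 167 and 142 in the libraries numbered 1, a log2 fold change of -2.50 ± 0.27. The gene mRpL36 had -2.31 ± 0.21. Translation factors had 4 of 48 (8.33%) lower (eIF4E-6, CG17737, Trip1 and eIF-5A), none higher and a median of -0.41, or -0.26 with length subtracted. The polyA-binding protein pAbp, which has 4303 exonic bases and the most counts of that list, had -0.85 ± 0.10.

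Of 75 tested nuclear-coded subunits of the respiratory chain 31 (41.3%) were lower and 7 (9.33%) higher, beside 5.33% and 8.45% over all tested protein-coding genes, with a median of -0.88, or -0.55 with length subtracted. CoVIII, a subunit of cytochrome c oxidase, had 321 and 417 counts in the libraries numbered 2, against 1957 and 1713 in the libraries numbered 1, a log2 fold change of -2.01 ± 0.13 (SE, adjusted p = 5.9e-22). ATPsyn-beta, the catalytic subunit of ATP synthase and the member with the most counts, had -0.70 ± 0.10. Of the 7 higher members, 5 lay in a same-strand intron (CG30354, CG12027, CG5718, CG8102 and CG11423), and the other two were CG44296 and CG11043. All 7 had 13 or fewer counts in every library numbered 1.

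Shares in the next lists stand against the same background of 5.33% lower and 8.45% higher. Of 33 proteasome genes 5 (15.2%) were lower, the core subunits Prosbeta4, Prosbeta3, Prosalpha5, Prosbeta7 and Prosbeta6, and Prosbeta4 had 127 and 152 counts in the libraries numbered 2, against 524 and 580 in the libraries numbered 1 (log2 fold change -1.68 ± 0.15). The 2 higher members (6.06%, below the background), Rpn13R and Rpn12R, were both in same-strand introns. The proteasome median was -0.41, or -0.19 with length subtracted. Its median length was 1215 bases, and 13.2% of genes of 894 to 1226 bases outside same-strand introns were lower. Of 11 glycolysis genes Eno, Gapdh2 and Pgk (27.3%) were lower, each at -1.04 ± 0.10, and none was higher. All 11 lay below their length class, and the median was -0.78, or -0.54 with length subtracted. Of 21 vacuolar ATPase genes VhaM9.7-a (-1.83 ± 0.12) and Vha36-1 (-1.12 ± 0.10) were lower, a share of 9.52%, and none was higher. The median was -0.43, or -0.51 with length subtracted.

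Neuropeptide precursors, short mRNAs made in small sets of neurons, had 10 of 35 (28.6%) lower, beside the background of 5.33%, and none higher. Their median was -0.83, or -0.47 with length subtracted, and 2 of the 35 were above 0. Myosuppressin (Ms), a peptide that slows muscle, had 814 and 890 counts in the libraries numbered 2, against 5466 and 4386 in the libraries numbered 1. Its log2 fold change was -2.22 ± 0.10 (SE, adjusted p = 5.4e-28). SIFa, a peptide that modulates courtship and feeding, had 100 and 170 counts in the libraries numbered 2, against 862 and 631 in the libraries numbered 1 (-2.16 ± 0.16). Eclosion hormone (Eh) had 51 and 23 counts in the libraries numbered 2, against 246 and 155 in the libraries numbered 1 (-2.15 ± 0.23). In bulk RNA, fewer cells of a type and less RNA per cell cannot be told apart.

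The remaining genes with the largest falls were CG15432, CG33774, CG17931 and Ssb-c31a, all with 1515 or fewer exonic bases. Ssb-c31a, the fly form of a transcription coactivator that binds single-stranded DNA, had 105 and 86 counts in the libraries numbered 2, against 574 and 495 in the libraries numbered 1 (-2.18 ± 0.16). CG15432 had -2.43 ± 0.21, CG33774 -2.24 ± 0.28 and CG17931 -2.20 ± 0.18. Antimicrobial and immune genes had 9 of 18 (50.0%, background 5.33%) lower and none higher, with a median of -1.11, or -0.51 with length subtracted. Without that subtraction the median was -0.62 within the libraries labelled rRNA-depleted. It was 1.18 without the polyA-enriched library numbered 1 and -3.19 without that numbered 2, the last pair with no block. Their counts in the libraries labelled rRNA-depleted were low: IM1 had 3 and 16 counts in the libraries numbered 2, against 7 and 144 in the libraries numbered 1.

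**Figure D5:**
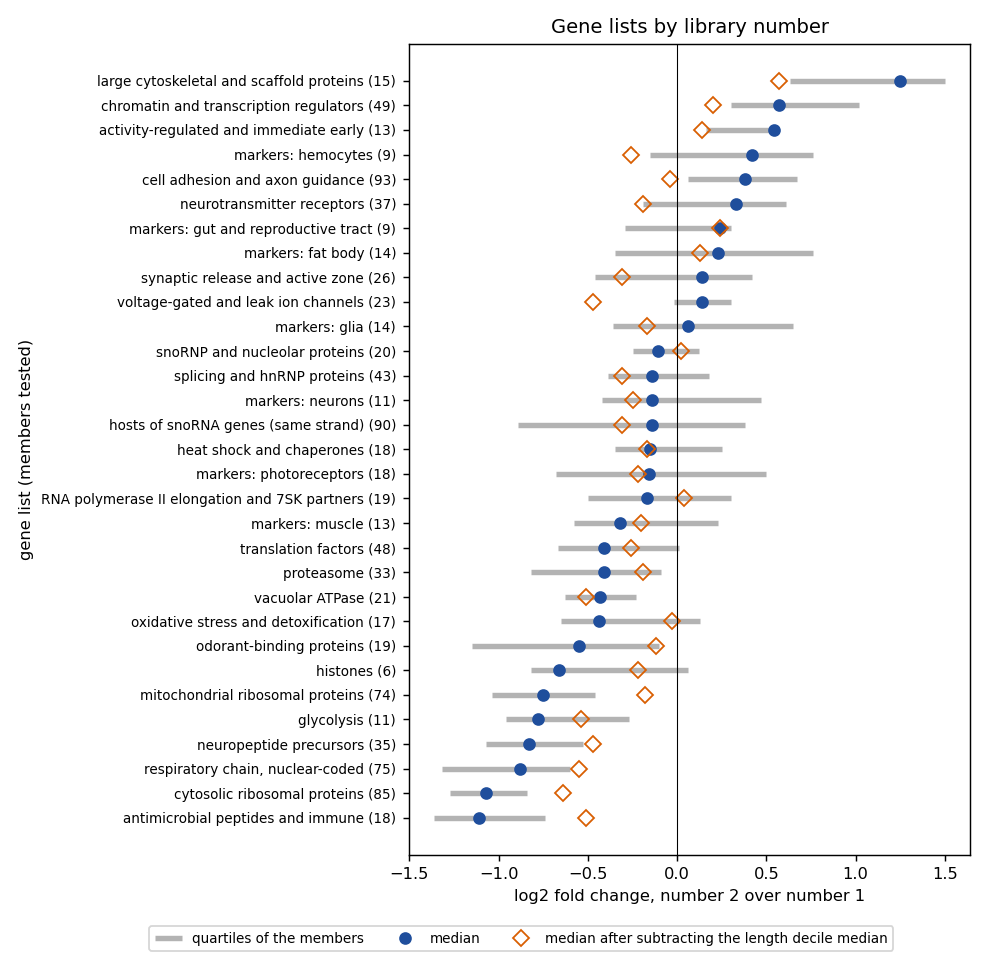
Median log2 fold change of number 2 over number 1 (horizontal) for each gene list (vertical, with the members tested in parentheses). Blue points are medians, grey bars the quartiles of the members, and open orange diamonds the medians after the median of the same length class was subtracted. Cytoskeletal proteins (1.25) and chromatin regulators (0.57) stand at the top and ribosomal proteins (-1.07) near the bottom, and subtracting length moves the ion channels to -0.47 and mitochondrial ribosomal proteins to -0.18.

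Length did not order every mRNA with many counts. The 5 mRNAs called lower with the most counts included Cam, Argk, sesB and CaMKII, which had 2006 to 5812 exonic bases. The other was Obp44a, an odorant-binding protein gene with 1076. Calmodulin (Cam), the calcium sensor, had 21764 and 18753 counts in the libraries numbered 2, against 55733 and 51998 in the libraries numbered 1. Its log2 fold change was -1.11 ± 0.10 (SE, adjusted p = 1e-14), and was -1.54 after the median of its length class was subtracted. CaMKII, the calmodulin-dependent kinase of synapses, had 9425 and 6580 counts in the libraries numbered 2, against 21899 and 17834 in the libraries numbered 1 (-1.02 ± 0.10). Argk, the arginine kinase that buffers ATP, had -1.15 ± 0.10, and sesB, the ADP/ATP carrier of mitochondria, -1.20 ± 0.10. Of the 1379 genes of at least 5000 bases outside same-strand introns, 2 were called lower, Cam and CG42354.

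Genes that work with or hold the RNAs abundant in the libraries numbered 2 were also counted, against the background of 8.45% higher and 5.33% lower. Of 20 snoRNP and nucleolar proteins none was higher and 1 was lower, CG7637 (-1.85 ± 0.26). Their median was -0.11, or 0.02 with length subtracted. Of 19 genes of RNA polymerase II elongation and 7SK partners none was higher, and the small polymerase subunits Rpb10, Rpb8 and Rpb11 (15.8%) were lower. The median was -0.17, but 0.04 with length subtracted, and 7 of the 19 lay below their length class. Among 90 tested protein-coding genes that span a snoRNA or snRNA gene on the same strand, 9 were higher and 21 (23.3%) lower. Their median was -0.14, or -0.31 with length subtracted. The lower ones included RpL28 (-1.82 ± 0.10), and the largest rise was that of Msp300. Many of the 90 are also on the list of cytosolic ribosomal proteins, of which 58.8% were lower. Of 43 splicing factors 2 in each direction (4.65%) passed, nito and mub higher and mago and snRNP-U1-C lower, shares at or below the background, and the median was -0.14.

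Histones could hardly be read, since 6 of 117 listed genes were tested. His2B:CG33868, a member of the repeated histone cluster whose near-identical copies can share reads, had 66 and 36 counts in the libraries numbered 2, against 0 and 1 in the libraries numbered 1, and is uncertain for that reason. The replacement histone His3.3B, which is transcribed outside the cluster and polyadenylated, had -0.85 ± 0.10. None of 18 heat shock and chaperone genes passed, with a median of -0.15. Of 17 oxidative stress genes Sod2 was lower (-1.41 ± 0.12), a share of 5.88% near the background of 5.33%, and the median of -0.44 ran from -1.09 to 0.45 with 1 library left out and no block. Of 19 odorant-binding protein genes 7 (36.8%, background 5.33%) were lower, and the 1 higher was Obp85a, the inner gene named above. Their median was -0.05 within the libraries labelled rRNA-depleted and -0.76 within those labelled polyA-enriched, -0.12 with length subtracted, and between -2.28 and 1.86 with 1 library left out and no block.

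Markers of cell types gave the following. Summed over 14 glial markers the libraries numbered 2 had 4420 and 4540 CPM, against 6740 and 6300 in the libraries numbered 1, no marker passed, and the median was 0.06 but -0.07 under 1 other scaling. The 11 neuronal markers summed to 9410 and 7780 CPM in the libraries numbered 2, against 9930 and 7910 in the libraries numbered 1, and DAT, the dopamine transporter, was higher. The 10 hemocyte markers summed to 1900 and 3180 CPM in the libraries numbered 2, against 1420 and 2090 in the libraries numbered 1, and none passed. In these 3 lists every marker had counts, and the part of cell composition in the results above was not tested.

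The 14 fat body markers were split by label more than by number, with 3070 and 16200 CPM in the libraries numbered 2, against 1650 and 16700 in the libraries numbered 1. Of these fit and Obp99b were lower and none was higher. The 18 photoreceptor markers summed to 2490 and 4570 CPM in the libraries numbered 2, against 1990 and 5030 in the libraries numbered 1, and Arr2, the main arrestin of the eye, was lower. The muscle markers, whose sums are given above and were lower in number 2 within both labels, had a median of -0.32 with 5 of 13 above 0, and 1 passed, Mhc, muscle myosin, which was higher. Markers of gut and reproductive tract summed to 3.46 and 70.1 CPM in the libraries numbered 2, against 3.99 and 65.8 in the libraries numbered 1, with Acp26Aa, Mst84Da, Mst84Db, SP and dj at 0 in all 4 and Mal-A1 higher. The values of Arr2, fit, Mhc and Mal-A1 changed sign in at least 1 fit without 1 library and without the block.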

How the data were processed

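RNA from fly brains was sequenced in 4 libraries with reads of 100 bases. The authors checked reads with FastQC, trimmed them with Trimmomatic and used STAR with dm6 for alignment. The deposited values are raw featureCounts counts for each gene, not normalized and not pooled. Versions, gene annotation and strand setting are not given in the sources used here. A gene counted without regard to strand or with other annotated exons would get other values. S2 cell libraries were not analysed here, and 0 columns were left unassigned.

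Of 16729 rows, 4 without usable counts were left out. Gene types and lengths came from Ensembl BDGP6.54 (dm6 coordinates): 12510 symbols matched, 4005 matched by 1 older symbol, and 210 did not and were not classed. edgeR 4.0.16 (R 4.3.3, TMM factors, quasi-likelihood test) compared number 2 with number 1, label as block, where 2 or more libraries had 10 or more counts of a gene. SE is the log2 fold change over the square root of F. DESeq2 1.42.0 was an alternative, and the fits were tested on simulated data. Deviations of same-labelled libraries from the number means correlated at 0.891 and of same-numbered libraries from the label means at 0.902, over 9737 genes. Log2 CPM used a prior count of 2. The smallest two-sided p of an exact permutation test that ignores the label is 0.33 with 2 libraries a group. Permuting within labels would allow fewer arrangements. Libraries held 11838449 to 14295047 counts.

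The members and gene lists were chosen with earlier results of these data known. The genes named are the 10 called protein-coding genes with the largest change in each direction (mean of at least 50 counts, same direction in both labels). Also named are the 5 called with the highest mean count in each direction, cell type markers, 7SK and the snoRNA sum. From each list up to 3 are named, the highest mean count and the largest called change in each direction. Genes of counts of 5 or fewer, hosts and those said to be so were named after their values were seen. Alternatives were other scalings, filters and thresholds, no block, DESeq2 and leaving out each library. GC content was not checked.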

Additional observations from a re-analysis of the deposited data

Results flagged for a closer look

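The following gene lists and genes had medians or values with opposite signs in the 2 labels, as the log2 ratio of number 2 over number 1. With 1 library per number and label the difference between labels was not tested. Fat body markers had a median of 0.67 within the libraries labelled rRNA-depleted and -0.15 within those labelled polyA-enriched. Muscle markers had 0.42 and -0.37 in the same order of labels, glial markers 0.19 and -0.03, and snoRNP and nucleolar proteins 0.04 and -0.27. Among named genes, the yolk protein gene Yp1 had 1.05 and -0.36, on 8610 and 51816 counts in the libraries numbered 2, against 5280 and 79752 in the libraries numbered 1. The germline gene osk had 0.72 and -0.58 on 5 and 196 counts in the libraries numbered 2, against 3 and 353 in the libraries numbered 1. Rdl had 0.05 and -0.17.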

How the results depend on the processing

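Beside 775 higher and 489 lower, the fit with no replicate block (label left out) called 449 and 229, a filter of 10 counts in all 4 libraries 465 and 428, and no fold change threshold 2782 and 2321. Leaving out each library, which also drops the block, gave 0 to 47 higher and 0 to 4 lower. Other scalings, no filter, DESeq2 and a threshold of 0.01 gave 562 to 738 higher and 450 to 700 lower, and without genes in same-strand introns, an alternative chosen after seeing the data, 553 and 488. Of 84 named protein-coding genes, 61 of them called, 21 lost the call without the block and 5 under DESeq2. With 1 library left out and no block, values changed sign for Arr2 (0.82), IM1 (0.66), IM2 (2.20) and fit (2.30) without the polyA-enriched library numbered 1, for Mal-A1 (-1.55) and Mhc (-1.75) without the polyA-enriched library numbered 2, and for Mhc (-0.02) without the rRNA-depleted library numbered 1. Over the 4 fits the values ran from -2.94 to 0.82 for Arr2, -4.29 to 0.66 for IM1, -4.08 to 2.20 for IM2, -5.19 to 2.30 for fit, -1.55 to 7.80 for Mal-A1 and -1.75 to 6.06 for Mhc. Over the same fits the medians of 17 of 31 gene lists kept 1 sign, among them ribosomal proteins (-1.43 to -0.80) and large cytoskeletal proteins (1.05 to 1.33), and 14 took both, the widest being muscle (-3.45 to 3.68) and gut and reproductive tract markers (-3.50 to 3.31). Leaving out a library also unbalances label and number, and with no block a difference between labels then enters the fold change. Arr2, IM1, IM2, fit, Mal-A1 and Mhc each had the same sign within both labels, with -1.05 and -0.97 for Arr2. The part of the labels in the changes of sign was not tested. Depth limits genes with few counts in the libraries numbered 1, whose ratios have wide intervals.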

Other observations

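Genes just downstream of an abundant neighbour were also counted, a class chosen after seeing the data. Of 286 protein-coding genes outside same-strand introns that start within 500 bases after the end of a same-strand gene with at least 10 times their mean counts, 60 (21.0%) were called higher in the libraries numbered 2 and 6 lower, beside 8.45% and 5.33% of all tested protein-coding genes. At distances of 500 to 2000 bases 23 of 223 (10.3%) were higher, at 2000 to 10000 bases 33 of 371 (8.89%) and beyond that 21 of 260 (8.08%). Of the 286 genes, 32 passed the filter through the libraries numbered 2 alone, and among the 184 with 10 or more counts in all 4 libraries 16 (8.70%) were higher, against 5.91% of all such genes. An example is Acp53C14c, a seminal fluid protein gene, with 48 and 22 counts in the libraries numbered 2, against 2 and 4 in the libraries numbered 1.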
